A study of Mus musculus with 58 samples.

Results

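Activation of CD4+ T cells that lack the miR-17∼92 microRNA cluster was described across all genes, by comparing cells stimulated weakly for 24 h with naive cells of the same genotype. The comparison rests on 7 of the series' 58 RNA-seq libraries, 4 of stimulated and 3 of naive knockout (KO) cells, taken by their labels and not by any measured value. KO mice carry CD4cre.miR-17∼92lox/lox (labelled T1792 delta/delta), so that a Cre recombinase driven by Cd4 control regions deletes the cluster in T cells. Stimulated KO cells were cultured for 24 h with 50 U/ml IL-2 on plates coated with anti-CD3 at 0.5 µg/ml and anti-CD28 at 0.2 µg/ml. Naive KO cells (replicates 1, 2 and 4) were taken without culture. Wild-type cells (labelled wt, without Cre), 4 stimulated in the same way and 3 naive, served to ask whether a change differed between genotypes. All cells came from lymph nodes and spleens pooled from 10 mice of both sexes, and the labels do not say that libraries with equal numbers share a pool. The p-values therefore measure the spread between libraries of a group, which may be partly technical. That spread was estimated over all 58 libraries in 15 groups, not from the compared libraries alone. Since naive cells were not cultured, culture and IL-2 cannot be told apart from the stimulus, and in bulk RNA fewer cells of a type cannot be told apart from less RNA per cell.

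A naive T cell is a small resting cell that recirculates through lymph nodes. When its antigen receptor (contacted here by anti-CD3) and the costimulatory receptor CD28 are engaged together, it grows, switches to biosynthetic metabolism, enters the cell cycle and remodels its surface receptors and cytokine genes. miR-17∼92 is a polycistronic microRNA transcript that is induced during this transition in normal T cells and is known there for restraining targets such as Bcl2l11 and Phlpp2, and the title of the series links it to costimulation.

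The mature microRNAs that the deletion removes are shown because they define the KO cells. They lie on chromosome 14, plus strand, between 115043684 and 115044496 (RefSeq, GRCm38.p6), and capitals mark the seed, bases 2 to 8 from the 5′ end, which pairs with target sites.
miR-17-5p: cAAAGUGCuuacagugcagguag
miR-20a-5p: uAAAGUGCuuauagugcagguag
miR-18a-5p: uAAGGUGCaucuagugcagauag
miR-19a-3p: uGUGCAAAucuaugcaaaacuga
miR-19b-3p: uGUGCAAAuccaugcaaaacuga
miR-92a-3p: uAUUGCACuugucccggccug
miR-17-5p and miR-20a-5p share the seed AAAGUGC, miR-19a-3p and miR-19b-3p share GUGCAAA, and the seeds of miR-18a-5p and miR-92a-3p stand alone.

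Counts of the cluster's hairpin genes in poly(A) RNA were near 0 in both KO states. Mir17 had 0 counts in the stimulated and 3 in the naive KO libraries, Mir18 had 1 and 0, Mir20a had 2 and 0, and Mir19a had 0 in both. The host transcript Mir17hg extends beyond the hairpins, and its row therefore does not check the deletion. It held 142, 116, 100.5 and 122 CPM in the stimulated KO libraries, against 56.3, 48.6 and 38.3 CPM in the naive KO libraries. Every stimulated library lay above every naive one (log2 fold change 1.33, SE 0.335, adjusted p = 4.0e-04; edgeR quasi-likelihood F test, Benjamini-Hochberg adjustment, as for every adjusted p that follows). In WT cells the Mir17hg row stood at 37.8 ± 13.3 CPM after stimulation and at 30.1 ± 5.67 CPM in naive cells (SD), and the difference between the KO and the WT change did not pass (log2 1.0, adjusted p = 0.912). Host transcript and hairpins together summed to 38.5 and 30.8 CPM in these WT states. Hairpin counts were thus low in WT cells too and do not check the deletion either.

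Exonic totals were 19.3 to 20.3 M counts in the stimulated and 19.95 to 20.57 M in the naive KO libraries, so depth was close to equal. The intron table added 13.2% to 16.4% of all counts in stimulated and 22.6% to 28.7% in naive KO libraries, and 14046 to 14378 genes against 15061 to 15539 had at least 1 count. The labelled cell type was matched by its markers, with all 14 genes of CD4 T cell identity above 100 CPM on average in both states (3 called higher, 10 lower) and summed levels of 5407 to 6590 CPM (counts scaled to a common library total) in stimulated and 8668 to 10590 CPM in naive KO libraries. Markers of other cells were richer in the naive libraries throughout. The summed level of 15 B cell markers was 73.2 to 185 CPM after stimulation and 604 to 1243 in naive KO cells, and that of 22 myeloid markers 10.1 to 18.5 against 213 to 364. Erythroid markers summed to 2.09 to 8.09 against 166 to 397 CPM, and Cdh5, Dcn and Alas2, markers of endothelium, stroma and erythroid cells, had 0 counts after stimulation. All 22 myeloid, all 9 erythroid and 7 of 8 stromal markers fell, against 40.3% of all genes tested. Immediate early and dissociation genes summed to 960 to 1459 CPM against 6690 to 11460. The part of these cells and of handling in the falls described below was not tested.

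Most expressed genes changed on stimulation of KO cells. Of 13709 genes tested, 10477 were called at an adjusted p under 0.05 (76.4%), 4957 of them higher (36.2%) and 5520 lower (40.3%) in stimulated KO cells. A change of at least 2-fold was reached by 6665 called genes (48.6%), 3016 higher (22%) and 3649 lower (26.6%). The libraries of the 2 states did not overlap in 9962 genes (72.7%). The median log2 fold change over all genes tested was -0.09, so lists are read against a shift close to 0. Counts called within a list are read against the 36.2% higher and 40.3% lower of all genes. All values are shares of a library, and a change in RNA per cell is not visible in them.

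The most abundant transcripts changed order. The chaperone gene Hsp90ab1, which had the highest mean after stimulation, had 7451, 6742, 6863 and 6105 CPM in the stimulated KO libraries, against 3021, 2108 and 2435 CPM in the naive KO libraries (log2 fold change 1.43, SE 0.109, adjusted p = 1.75e-16). Ncl, which encodes the nucleolar protein nucleolin, had 6428, 5083, 5037 and 4020 CPM in the stimulated KO libraries, against 932, 683 and 1153 CPM in the naive KO libraries (log2 fold change 2.48, SE 0.163, adjusted p = 7.64e-19). The libraries of the states did not overlap for these genes. Eef1a1, the translation elongation factor that led the naive libraries, had 6577, 7064, 6478 and 5523 CPM in the stimulated KO libraries, against 11250, 8062 and 14760 CPM in the naive KO libraries and fell by 0.83 on the log2 scale, and Tmsb4x, an actin-binding peptide, by 0.89. The 3 naive libraries spread widely for Eef1a1, and replicate 2 was lowest.

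**Figure D1:**
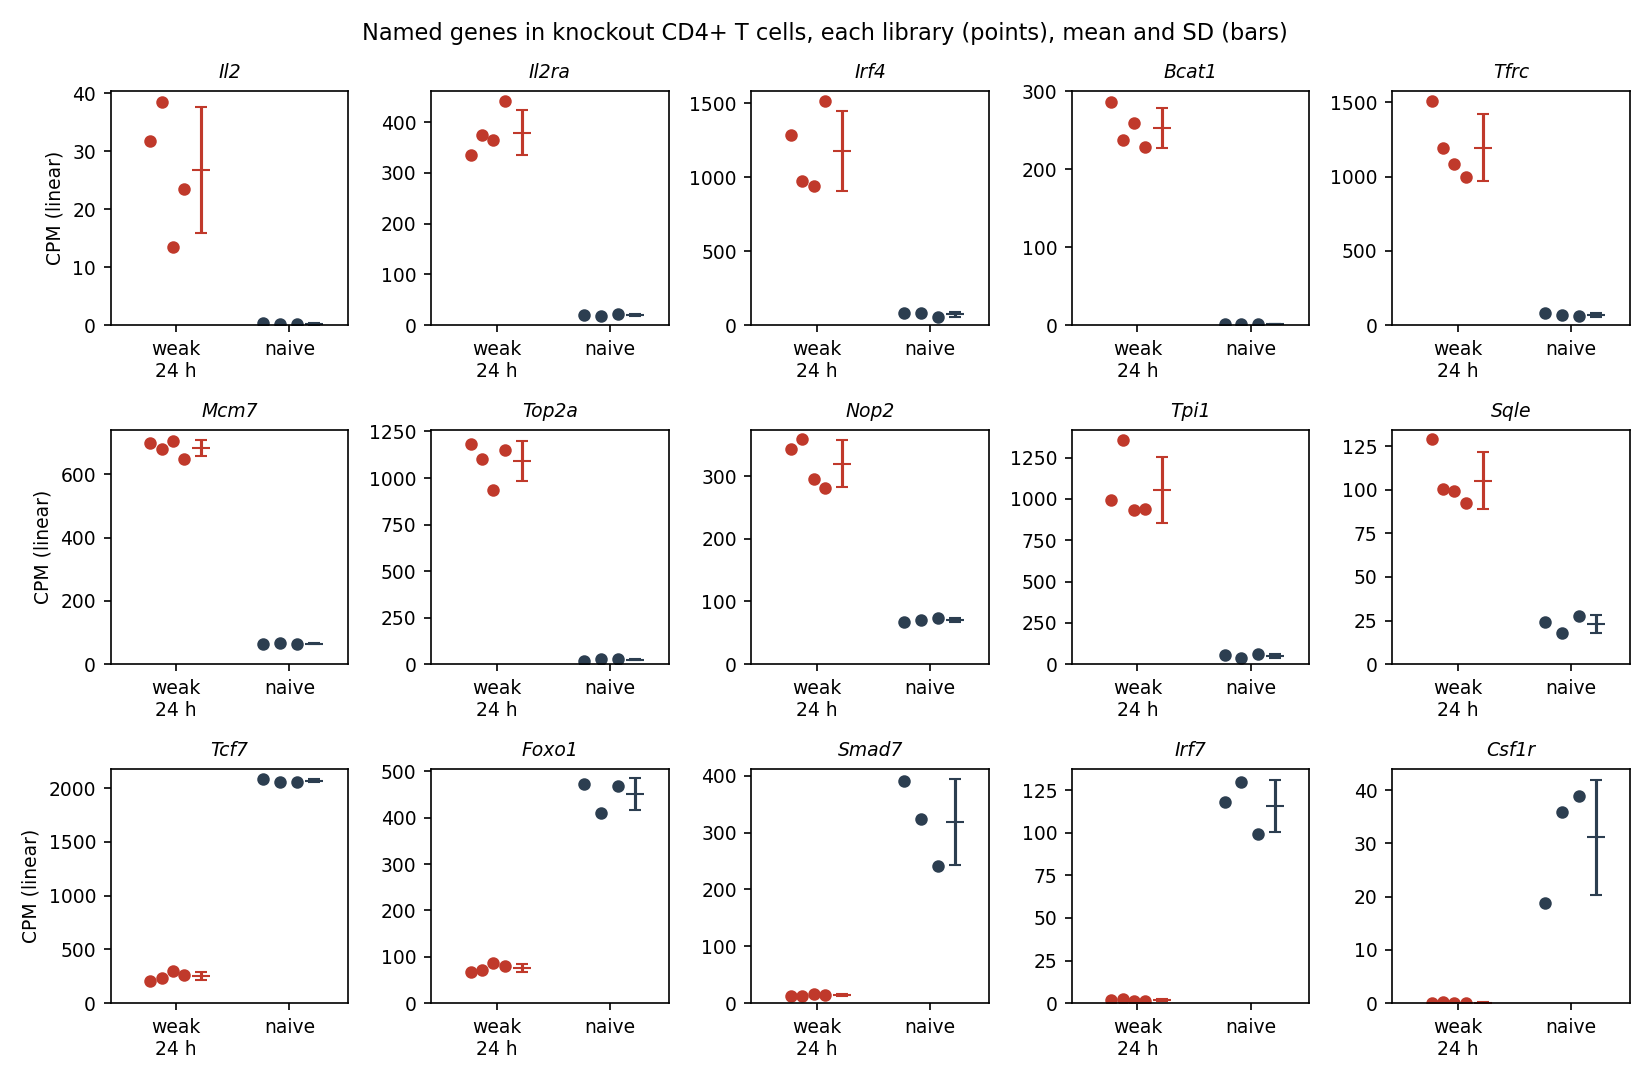
CPM of 15 genes (linear y axis from 0) in each stimulated (left, red, 4 libraries) and naive (right, dark, 3 libraries) KO library, with mean and SD beside the points. The genes were picked by hand from the named ones. In all 15 the libraries of the states were separate, as in 72.7% of all genes tested. Il2 stood at 13.4 to 38.6 CPM after stimulation and Tcf7 at 2060 to 2089 CPM in naive cells.

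Among genes with at least 10 CPM in either state, the 12 largest called rises were led by enzymes of amino acid and ketone metabolism and by replication genes. Bdh2, a cytosolic hydroxybutyrate dehydrogenase, had 1381 counts in stimulated and 1 count in naive KO libraries, a ratio of 1067 per unit of depth (95% counting interval 191 to 42187). Gls2, a glutaminase, had 1170 and 3 counts, a ratio of 301 (103 to 1464). These intervals cover counting error only. Bcat1, the cytosolic branched-chain amino acid transaminase, had 286, 237, 258 and 228 CPM in the stimulated KO libraries, against 1.66, 1.44 and 1.44 CPM in the naive KO libraries (log2 fold change 7.38, SE 0.213, adjusted p = 5.01e-33). Stimulated libraries differed little among themselves, and every one lay more than 100 CPM above the naive ones. The mitochondrial adenylate kinase gene Ak4 rose by 7.18 on the log2 scale, the nucleotide hydrolase gene Dnph1 by 6.61, and Lrr1, whose product takes part in replisome disassembly, by 7.42. Further genes of this set were Mcm10, Dtl and Hrob, which act in DNA replication (6.97, 6.59 and 7.0), the activity-dependent transcription factor gene Npas4 (7.16), Fsbp (7.0) and Il2.

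Il2, the growth factor cytokine that activated T cells make for themselves, had 31.7, 38.6, 13.4 and 23.4 CPM in the stimulated KO libraries, against 0.311, 0.144 and 0.160 CPM in the naive KO libraries (log2 fold change 7.0, SE 1.02, adjusted p = 3.36e-08). Replicate 2 was highest and replicate 3 lowest after stimulation, and all 4 stood far above the naive values. Il2 was 1 of few induced cytokine genes. Of 27 tested cytokines and chemokines, 6 rose and 7 fell (22.2% and 25.9%, against 36.2% and 40.3% of all genes). Their median was 0.41. The rising 6 were Il2, Il3, Ccl1, Ccl4, Lif and the chemokine gene Xcl1 (26.2, 35.8, 41.0 and 17.6 CPM in the stimulated KO libraries, against 2.95, 1.58 and 2.88 CPM in the naive KO libraries). Il3 and Ccl1 had 0 counts in naive KO libraries, so their fitted changes are no bounds. Ltb, a lymphotoxin subunit of resting lymphocytes (log2 fold change -3.21, SE 0.269, adjusted p = 3.80e-15), Il16 (-1.97), Ccl5 (-3.68), Tnf, Il21, Osm and Areg fell. Ifng and Il4, the signature cytokines of Th1 and Th2 cells, had changes of 0.62 and 0.41 that did not pass. Il4 held only 9 counts in stimulated and 5 in naive KO libraries, too few to read a change from. Members of this list outside Il2, Xcl1, Ltb, Il16 and Ccl5 were named after their values were seen.

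Most cytokine receptor genes fell, and most costimulatory and inhibitory receptor genes rose. Il2ra, the high-affinity IL-2 receptor chain and a standard activation marker, had 336, 375, 366 and 441 CPM in the stimulated KO libraries, against 19.8, 17.1 and 21.7 CPM in the naive KO libraries (log2 fold change 4.28, SE 0.233, adjusted p = 6.25e-22). Il12rb1, a chain of the IL-12 and IL-23 receptors, had 167, 173, 119.9 and 160 CPM in the stimulated KO libraries, against 5.18, 4.36 and 3.95 CPM in the naive KO libraries (5.10). Neither gene showed overlap between the states. In all, 5 of 24 cytokine receptor genes rose and 17 fell (20.8% and 70.8%, against 36.2% and 40.3% of all genes). Their median was -1.59, and the falls included Ifngr1 (-2.47) and Il17ra (-2.25). Of 24 costimulatory and inhibitory receptors, 14 rose and 7 fell (58.3% and 29.2%, median 1.15). Pdcd1, which encodes the inhibitory receptor PD-1, had 162, 200.3, 203 and 212 CPM in the stimulated KO libraries, against 8.29, 6.03 and 8.01 CPM in the naive KO libraries (log2 fold change 4.71, SE 0.273, adjusted p = 6.70e-21). Cd200, an inhibitory ligand (4.53), Tnfrsf4, the costimulatory receptor OX40 (4.09), Icos (1.5) and Tigit (2.18) rose as well. The falls included Cd96 (-2.13) and Tnfrsf14, which encodes HVEM (-1.92).

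Genes of proximal antigen receptor signalling were mostly lower after 24 h. Of 26 tested, 6 rose and 18 fell (23.1% and 69.2%, against 36.2% and 40.3% of all genes). Their median was -0.57. The adaptor gene Grap2 had 62.8, 78.7, 85.7 and 77.1 CPM in the stimulated KO libraries, against 718, 735 and 676 CPM in the naive KO libraries (log2 fold change -3.22, SE 0.169, adjusted p = 1.38e-22), with no overlap. Rasgrp1, a Ras activator (-2.46), and the kinase gene Prkcq (-1.49) also fell. On the CD4 T cell identity list, the receptor chain gene Cd247 fell by 1.95 and the surface glycoprotein gene Thy1 by 2.41. Lck, the kinase that starts the signal and a member of both lists, fell by 1.02. Of the 6 signalling genes that rose, Cd5 and Cd6, which dampen receptor signals, did so by 0.79 and 0.78. The others, named after their values were seen, were Zap70 (0.71), Lcp2 (0.49), Sla (0.79) and Ptpn6 (0.24). Of 19 calcineurin and NFAT genes, 2 rose and 10 fell, the calcium channel gene Orai2 by 3.67 and the phosphatase gene Ppp3ca by 1.82. The 2 that rose were Orai1 (0.68) and Rcan1 (0.81), a calcineurin inhibitor that NFAT induces.

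Of 26 transcription factors of activation, 11 rose and 12 fell (median 0.21), 42.3% and 46.2%, close to the 36.2% and 40.3% of all genes. Irf4, which scales with receptor signal strength, had 1285, 974, 939 and 1514 CPM in the stimulated KO libraries, against 85.4, 82.5 and 53.3 CPM in the naive KO libraries (log2 fold change 4.0, SE 0.206, adjusted p = 6.49e-23), and Hif1a, a driver of glycolytic genes, rose by 1.95. The AP-1 genes Jun and Junb went the other way. Jun had 17.7, 20.7, 11.6 and 15.8 CPM in the stimulated KO libraries, against 1081, 699.9 and 701 CPM in the naive KO libraries (log2 fold change -5.65, SE 0.384, adjusted p = 2.35e-18), and Junb fell by 3.83. Both belong to the genes that cell isolation can induce, and they fell together with Zfp36 (-4.82), Dusp1 (-3.78) and Btg2 (-3.56). Of 17 immediate early and dissociation genes 0 rose and 14 fell, and whether handling of naive cells raised them was not tested. Of 20 NF-kB genes, 5 rose and 11 fell (25% and 55%). Nfkb1 and Nfkb2, the precursors of p50 and p52, rose by 1.28 and 1.79, and Nfkbiz and Cyld fell by 3.12 and 1.05. Of 8 SOCS family genes, which limit cytokine signals, 25% rose and 37.5% fell. The rises were Cish (1.38) and Socs2 (2.68), and the 3 falls (1 without naive replicate 4) included Socs3 (-3.21). Of 16 ERK feedback genes, 4 rose and 7 fell (25% and 43.8%, against 36.2% and 40.3% of all genes). Spry1 (3.71) and Spred1 (1.94) rose, and the Ras inhibitor gene Rasa3 fell (50.4, 43.9, 65.9 and 69.5 CPM in the stimulated KO libraries, against 677, 653 and 666 CPM in the naive KO libraries; log2 fold change -3.53, SE 0.176, adjusted p = 1.64e-23).

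The cell cycle programme rose as a block. All 40 DNA replication genes were called higher (3.42 median log2 fold change) and all 26 mitosis genes too (median 5.03), against 36.2% of all genes tested. Mcm7, a subunit of the replicative helicase, had 699, 680.4, 706 and 647 CPM in the stimulated KO libraries, against 64.5, 65.5 and 64.6 CPM in the naive KO libraries (log2 fold change 3.40, SE 0.0946, adjusted p = 1.25e-33). Top2a, the topoisomerase that untangles chromosomes before division, had 1183, 1100, 937 and 1150 CPM in the stimulated KO libraries, against 19.5, 26.6 and 25.7 CPM in the naive KO libraries (log2 fold change 5.51, SE 0.172, adjusted p = 1.11e-31). The 4 stimulated libraries were within a narrow band for Mcm7 and far above all naive ones for both genes. Cdc45 (5.32) and the ligase gene Lig1 (4.32) followed the helicase, and the spindle and kinetochore genes Aurkb (6.08), Birc5 (5.19) and Bub1b (4.52) followed Top2a. Of 20 G1 cyclin and E2F genes, 17 rose, among them Ccne1 (4.45), E2f1 (4.64), Mybl2 (4.94) and Tfdp1 (3.22). Ccnd1 fell (0.106, 0.101, 0.104 and 0.0498 CPM in the stimulated KO libraries, against 2.02, 3.45 and 5.28 CPM in the naive KO libraries), and Ccnd3 did so by a margin (-0.42, adjusted p = 0.0222) that was lost without naive replicate 4 (adjusted p = 0.108), without stimulated replicate 3 (0.0687) or 4 (0.0558), and with no filter on low counts (0.0622).

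The summed CPM of the 26 mitosis genes was 4240 to 5045 in stimulated and 161 to 194 in naive KO libraries, and that of the 40 replication genes 12730 to 13930 against 1528 to 1763. Of 8 CDK inhibitors and RB family genes, 3 rose and 3 fell (37.5% each, against 36.2% and 40.3% of all genes). Cdkn1b, the p27 gene that holds resting cells out of the cycle, had 20.3, 16.8, 25.3 and 32.7 CPM in the stimulated KO libraries, against 281, 263 and 204 CPM in the naive KO libraries (log2 fold change -3.39, SE 0.227, adjusted p = 1.38e-18), and Cdkn2d fell by 1.89, while Cdkn1a, the p21 gene, rose by 4.47 and Cdkn2c by 2.22. Of 14 genes of DNA methylation and Polycomb, 10 rose and 4 fell (71.4% and 28.6%). Uhrf1, which brings the maintenance methyltransferase to new DNA, had 699.7, 599.5, 635 and 669 CPM in the stimulated KO libraries, against 8.34, 10.9 and 10.51 CPM in the naive KO libraries (log2 fold change 6.04, SE 0.121, adjusted p = 1.12e-39), and Dnmt1 (2.10), Ezh2 (3.12) and Hells (4.99) rose too. Ezh1, the Polycomb enzyme of resting cells (-1.52), and Tet1 (-2.84) fell.

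Promoters of these genes are shown for the short motifs that E2F and mitotic factors are known to use, read from 250 bases before to 50 bases after the start (RefSeq, GRCm38.p6, on the strand of the gene). Motifs were searched on both strands, and a match describes the letters, not a bound site. The set of all windows was not limited to the genes tested here, so its shares are not those of the tested genes alone. Since some genes have several windows and others none, 32 of 40 replication genes, 21 of 26 mitosis genes and 24 of 29 ribosome biogenesis genes had at least 1. The E2F form TTTCCCGC was in 6 of 37 windows of replication genes (16.2%) and in 1.07% of all 32851 windows, and the form TTTGGCGC in 5 (13.5%) and 0.514%. Of 21 mitosis windows, 17 held CCAAT (81.0%, against 37.4% of all windows) and 15 held the cell cycle element TTTGAA (71.4%, against 17.9%). The window of Mcm7 (chr5:138171834-138172133, minus strand) has 1 match to TTTCCCGC, in capitals on the opposite strand, and that of Top2a (chr11:99024140-99024439, minus strand) has 6 matches to CCAAT, in capitals on either strand.
Mcm7: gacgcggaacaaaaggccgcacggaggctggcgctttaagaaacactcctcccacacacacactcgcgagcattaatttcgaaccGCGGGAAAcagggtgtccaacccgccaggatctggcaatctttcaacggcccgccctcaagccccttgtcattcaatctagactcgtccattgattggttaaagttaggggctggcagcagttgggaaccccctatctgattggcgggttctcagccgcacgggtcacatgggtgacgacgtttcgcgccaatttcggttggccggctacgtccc
Top2a: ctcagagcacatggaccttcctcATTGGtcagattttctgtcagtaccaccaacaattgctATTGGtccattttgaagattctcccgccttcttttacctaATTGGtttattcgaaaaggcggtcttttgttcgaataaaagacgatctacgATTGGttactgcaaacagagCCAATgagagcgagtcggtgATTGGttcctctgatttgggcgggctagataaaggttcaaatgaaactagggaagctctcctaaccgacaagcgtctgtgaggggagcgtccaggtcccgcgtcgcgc

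Genes that build ribosomes rose without exception among those tested, while the structural proteins of the ribosome did not. All 29 ribosome biogenesis genes were called higher (median 1.83), and their summed level was 14010 to 19680 CPM in stimulated against 3551 to 4679 CPM in naive KO libraries. Nop2, a nucleolar RNA methyltransferase, had 343, 359.7, 296 and 280.4 CPM in the stimulated KO libraries, against 67.3, 70.8 and 73.0 CPM in the naive KO libraries (log2 fold change 2.18, SE 0.116, adjusted p = 2.20e-22), and Noc4l (2.30), Mybbp1a (2.01) and Rrp1b (1.89) rose alongside. Of 77 cytosolic ribosomal protein genes, 5 rose and 35 fell (median -0.31). That split moved with single naive libraries: it was 1 higher and 54 lower without naive replicate 2, and 11 higher and 20 lower without naive replicate 4. Those replicates also had the highest (28.7%) and the lowest (22.6%) intronic share of the naive KO libraries, whose part in the split was not tested. It was 5 and 39 with size factors in place of TMM. Rps27 fell (149, 186, 189 and 145 CPM in the stimulated KO libraries, against 665, 422 and 794 CPM in the naive KO libraries; log2 fold change -1.91, SE 0.172, adjusted p = 4.60e-14) and Rps2 rose (1.04). Ribosomal protein genes have many near-identical pseudogenes, and how reads were split among them is not given in the sources used here.

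The E-box CACGTG, which MYC is known to bind, was in 7 of 28 windows of ribosome biogenesis genes (25%) and in 7.15% of all windows. The window of Nop2 (chr6:125131633-125131932, plus strand) holds 1 match, in capitals.
Nop2: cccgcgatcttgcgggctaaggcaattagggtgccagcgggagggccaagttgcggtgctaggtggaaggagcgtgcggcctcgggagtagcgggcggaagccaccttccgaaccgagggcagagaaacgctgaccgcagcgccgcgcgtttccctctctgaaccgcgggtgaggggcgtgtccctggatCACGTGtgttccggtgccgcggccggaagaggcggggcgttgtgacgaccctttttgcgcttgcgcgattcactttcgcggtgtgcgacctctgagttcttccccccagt

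Transcripts of genes for tRNA charging and precursor synthesis rose broadly. Of 20 aminoacyl-tRNA synthetases, which charge tRNAs, 19 rose and 0 fell (median 1.49), such as Kars (1.89), Mars1 (1.79) and Hars (1.62). Of 23 genes of nucleotide and polyamine synthesis, 20 rose and 1 fell (median 1.90). Ctps, the CTP synthase of proliferating lymphocytes, had 279.7, 221, 192 and 173 CPM in the stimulated KO libraries, against 30.7, 30.8 and 31.8 CPM in the naive KO libraries (log2 fold change 2.80, SE 0.154, adjusted p = 8.75e-22), whereas its paralog Ctps2 fell by 1.30. Umps (2.76), Paics (2.31) and Impdh2 (1.88) serve pyrimidine and purine synthesis and rose. Of 24 genes of amino acid and one-carbon metabolism and of the ATF4 response, 18 rose and 1 fell (median 2.47). Shmt1 (4.58), the serine enzyme gene Psat1 (3.55) and Mthfd1l (2.06) were among them, and the stress factor gene Ddit3 was the 1 that fell (-1.88). The ATF4 motif TGATGNAA was in 6 of 25 of their windows (24%), against 3.97% of all windows.

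Nutrient uptake genes moved with them, 15 of 17 higher and 1 lower. Tfrc, the transferrin receptor that brings in iron, had 1507, 1195, 1084 and 996 CPM in the stimulated KO libraries, against 81.0, 66.5 and 59.5 CPM in the naive KO libraries (log2 fold change 4.12, SE 0.214, adjusted p = 1.11e-22). The lactate carrier Slc16a1 (2.60), the folate carrier Slc19a1 (2.52) and the nucleoside carrier Slc29a1 (2.87) rose, and the glutamine carrier Slc38a2 fell (-1.27). Of 26 glycolysis and pentose phosphate genes, 18 rose and 2 fell (median 1.0; 1 fell without naive replicate 4). Tpi1, triosephosphate isomerase, had 994, 1354, 930.1 and 939 CPM in the stimulated KO libraries, against 53.1, 39.2 and 61.9 CPM in the naive KO libraries (log2 fold change 4.36, SE 0.203, adjusted p = 1.30e-24), with replicate 2 highest, and Pgam1 (3.46), Pgk1 (2.89) and the transketolase gene Tkt (1.85) rose too. Pdk1, a kinase that inhibits pyruvate dehydrogenase, fell (-1.54). Of 40 TCA cycle and respiratory chain genes, 36 rose and 0 fell, by less (median 0.86), with Fh1 at 2.07 and Atp5b at 1.41.

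Of 25 sterol genes, 22 rose and 1 fell (median 1.16). Idi1 (3.55), Cyp51 (3.09) and Sqle (129, 100.2, 99.4 and 92.4 CPM in the stimulated KO libraries, against 24.1, 17.7 and 27.7 CPM in the naive KO libraries) rose, and Tm7sf2 fell (-1.02). The sterol element TCACNCCAC was in 1 of 20 of their windows (5%), against 1.24% of all. Of 13 fatty acid synthesis genes, 8 rose and 4 fell (median 0.90). The carboxylase gene Acaca rose by 2.28, and its mitochondrial counterpart Acacb, a brake on fatty acid oxidation, fell by 1.74. Of 20 fatty acid oxidation genes, 10 rose and 6 fell (50% and 30%, against 36.2% and 40.3% of all genes). Their median was 0.23. Cpt1a, which admits fatty acids to mitochondria, had 17.9, 25.8, 31.5 and 29.98 CPM in the stimulated KO libraries, against 120.2, 179 and 145 CPM in the naive KO libraries (log2 fold change -2.49, SE 0.194, adjusted p = 3.30e-16), with no overlap, while the electron carrier genes Etfa and Etfb rose by 0.94 and 1.32.

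Transcripts of most proteasome and chaperone genes rose as well. Of 34 proteasome genes, 31 rose and 2 fell (median 1.35). Psmd1 (2.04), Psmd7 (2.05) and Psmb2 (1.64) were among the first set, and the falls were those of the immunoproteasome subunits Psmb10 (-1.30) and Psmb8 (-0.34, adjusted p = 0.0364). The call for Psmb8 was lost without naive replicate 1 (adjusted p = 0.0721) or 4 (0.401) and without stimulated replicate 1 (0.0790), 3 (0.0774) or 4 (0.108), as well as with the 7 libraries fitted alone (0.0972) and with no filter on low counts (0.106). Of 25 chaperone genes, 20 rose and 3 fell (median 1.31). Hspd1, the mitochondrial chaperonin, had 2057, 1820, 1457 and 1237 CPM in the stimulated KO libraries, against 206, 129 and 219 CPM in the naive KO libraries (log2 fold change 3.15, SE 0.183, adjusted p = 6.78e-21), and Hspa9 (2.20) and Tcp1 (1.86) rose. The stress-inducible Hspa1a and Hspa1b were the extreme exceptions. Hspa1b had 1.38, 1.81, 1.71 and 1.29 CPM in the stimulated KO libraries, against 1377, 269.8 and 714 CPM in the naive KO libraries (log2 fold change -8.98, SE 0.692, adjusted p = 2.15e-16), and Hspa1a fell by 8.60. Naive replicate 2 was lowest and replicate 1 highest for both, and since the copies are near-identical their split is uncertain.

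**Figure D2:**
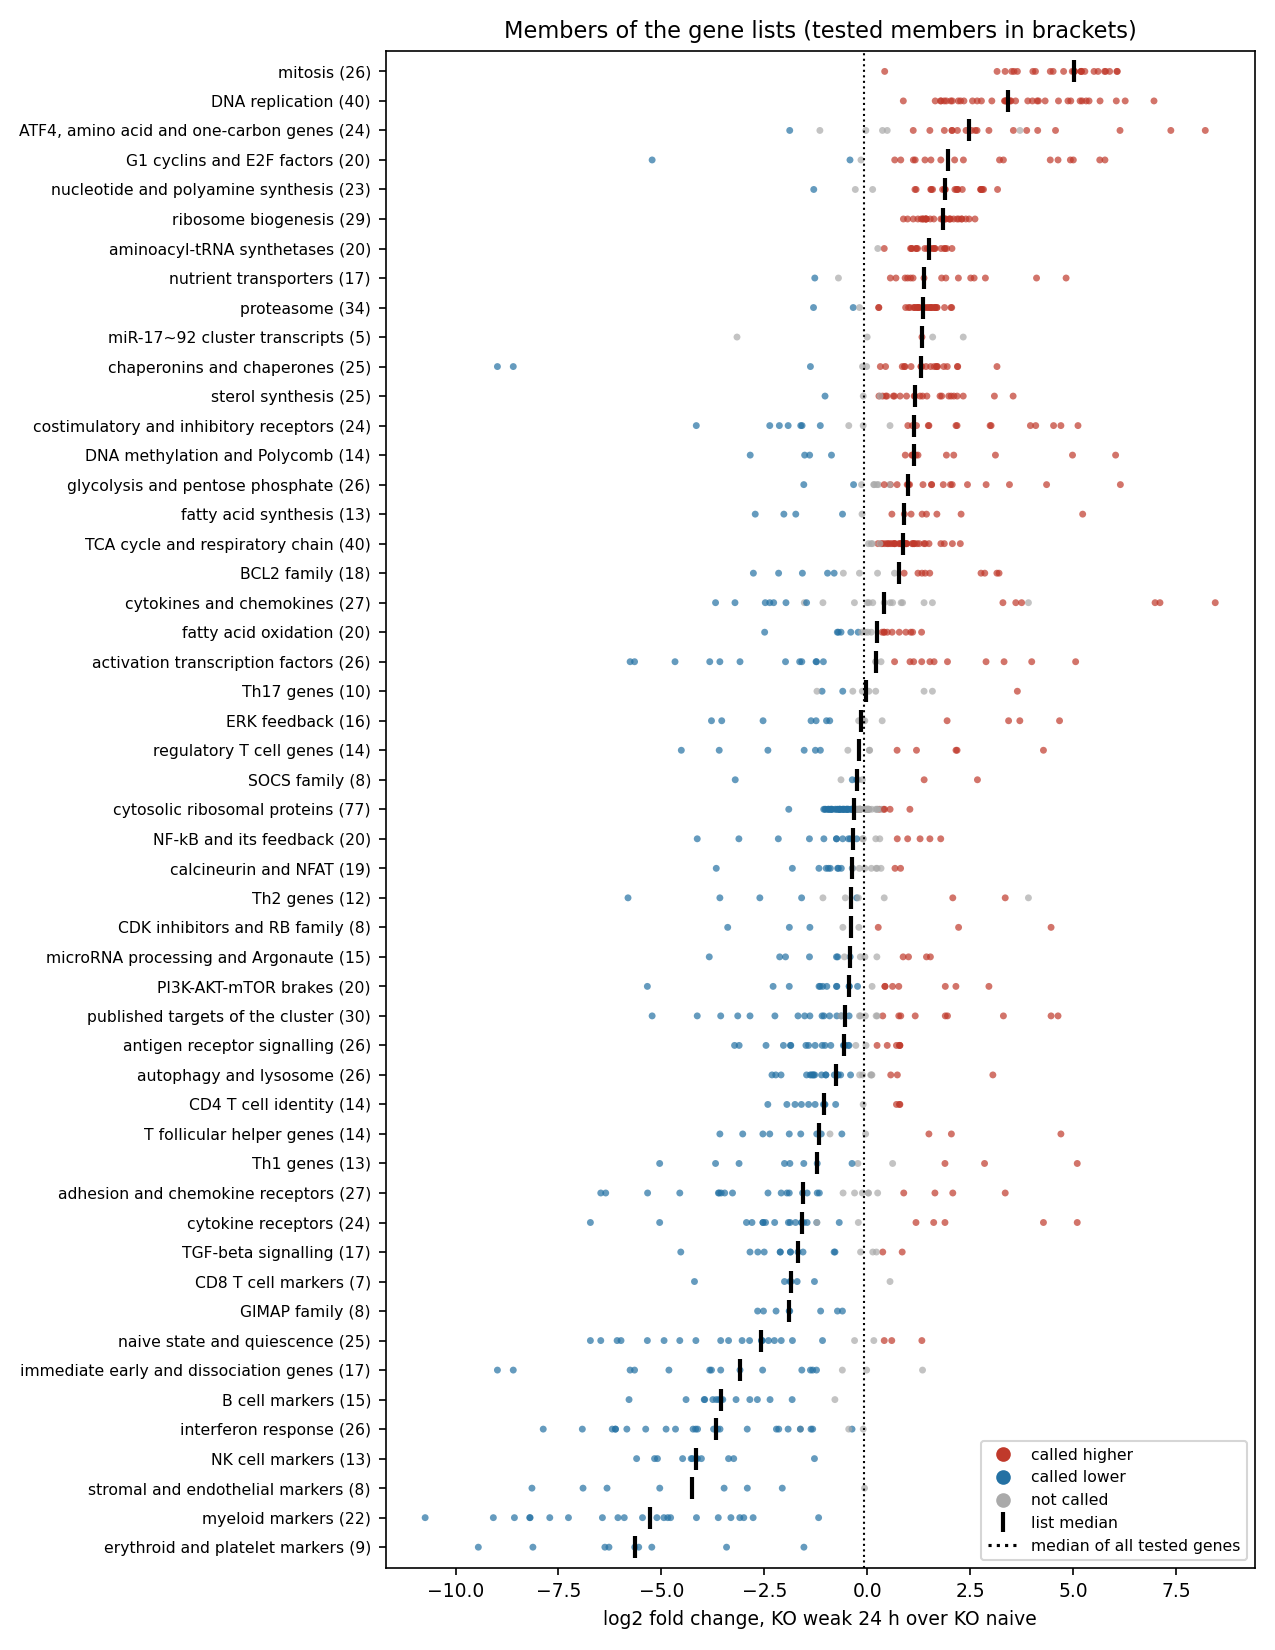
Log2 fold change (x axis, KO weak 24 h over KO naive) of each tested member of 51 gene lists, 1 row a list, coloured by call, with the list's median as a bar and the median of all 13709 genes as a dotted line. Mitosis and DNA replication lists sit at the top with medians of 5.03 and 3.42, and markers of erythroid and myeloid cells at the bottom.

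Most genes of the resting state fell. Of 25 naive state and quiescence genes, 20 fell and 3 rose (median -2.57; 40.3% of all genes fell). Tcf7, the transcription factor TCF1 of naive and memory cells, had 209, 238, 297 and 263 CPM in the stimulated KO libraries, against 2089, 2060 and 2062 CPM in the naive KO libraries (log2 fold change -3.04, SE 0.170, adjusted p = 1.55e-21). Rasgrp2, which activates the integrin switch Rap1, had 5.82, 6.43, 7.16 and 7.87 CPM in the stimulated KO libraries, against 464, 502 and 417 CPM in the naive KO libraries (log2 fold change -6.08, SE 0.283, adjusted p = 1.24e-24). Naive libraries agreed closely for Tcf7, and for both genes no stimulated library approached them. Foxo1, a regulator of homing genes, fell (67.6, 71.6, 86.2 and 79.97 CPM in the stimulated KO libraries, against 472, 411 and 469 CPM in the naive KO libraries; log2 fold change -2.56), and the antiproliferative Btg1 did too (-2.55). Among members named after their values were seen, the survival receptor Il7r (-6.72), the egress receptor S1pr1 (-6.47) and its regulator Klf2 (-4.93) fell, and Ccr7 (-0.31) and Foxp1 (0.16) did not pass. Id3 was the largest rise on the list (1.33). All 8 GIMAP genes, GTPases of lymphocyte survival, fell (median -1.89), led by Gimap8 (-2.66).

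Most trafficking genes fell. Of 27 adhesion and chemokine receptor genes, 17 fell and 4 rose (63.0% and 14.8%, against 40.3% and 36.2% of all genes). Their median was -1.57. Cxcr4, the receptor for the chemokine CXCL12, had 5.60, 6.13, 3.48 and 3.88 CPM in the stimulated KO libraries, against 480.2, 352 and 339.9 CPM in the naive KO libraries (log2 fold change -6.35, SE 0.437, adjusted p = 3.87e-18), with no overlap. The integrin genes Itgb7 (-3.55), Itga6 (-2.09) and Itgb2 (-1.57) fell, and Itgb1 (1.65) and Ccr4 (3.35) rose. Of 20 brakes of the PI3K-AKT-mTOR pathway, 7 rose and 12 fell (35% and 60%, against 36.2% and 40.3% of all genes). Their median was -0.44. Pik3ip1, an inhibitor of PI3K at the surface of resting T cells, had 3.70, 3.57, 5.45 and 5.18 CPM in the stimulated KO libraries, against 182, 187 and 176 CPM in the naive KO libraries (log2 fold change -5.34, SE 0.376, adjusted p = 8.80e-18), and Sesn1 fell by 2.29, while Fnip2 (2.16) and Phlpp2 (1.90) rose. Of 26 autophagy and lysosome genes, 18 fell and 3 rose (69.2% and 11.5%). The protease genes Ctss and Ctsd fell by 2.22 and 1.47, and Gabarapl1, which acts in autophagosome formation, was among the rises (3.05).

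Genes of TGF-beta signalling, which restrains T cells, mostly fell. Of 17 tested, 12 fell and 2 rose (70.6% and 11.8%, against 40.3% and 36.2% of all genes). Their median was -1.68. Smad7, the inhibitory SMAD that the pathway itself induces, had 12.2, 12.1, 15.9 and 15.1 CPM in the stimulated KO libraries, against 391, 324 and 241 CPM in the naive KO libraries (log2 fold change -4.53, SE 0.232, adjusted p = 5.49e-23). Tgfbr2, the ligand-binding receptor, had 95.2, 109, 120.5 and 118 CPM in the stimulated KO libraries, against 807, 699.9 and 881 CPM in the naive KO libraries (log2 fold change -2.85, SE 0.132, adjusted p = 1.12e-24), and Smad4, the shared signal carrier, fell by 1.68. Stimulated libraries were below all naive ones for each. Smad2 and the repressor gene Tgif1 rose by 0.38 and 0.85.

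Interferon response genes fell in 23 of 26 tested cases, with 0 rising and a median of -3.68. Oas2, an antiviral sensor, had 0.423, 0.352, 0.259 and 0.647 CPM in the stimulated KO libraries, against 98.2, 139 and 63.5 CPM in the naive KO libraries (log2 fold change -7.87, SE 0.909, adjusted p = 8.25e-11), and Irf7, the amplifier of type I interferon, had 2.01, 2.16, 1.04 and 1.44 CPM in the stimulated KO libraries, against 118, 129.9 and 99.2 CPM in the naive KO libraries (log2 fold change -6.12, SE 0.897, adjusted p = 3.77e-08). For both genes every stimulated library lay below every naive one. Irf9, a subunit of the interferon-activated factor, fell by only 1.36. The element TTCNNTTTC was in 13 of 24 windows of these genes (54.2%), against 8.56% of all windows. Myeloid markers, whose summed naive level is given above, fell with this list, and their part was not tested.

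The largest falls at 10 CPM or more included genes of macrophages and of heat shock. Csf1r, the macrophage growth factor receptor, had 0, 0.201, 0 and 0 CPM in the stimulated KO libraries, against 18.8, 35.9 and 38.8 CPM in the naive KO libraries (log2 fold change -9.08, SE 0.676, adjusted p = 6.29e-16). The complement gene C1qb had 0 counts after stimulation and 640 in naive libraries, and so was at least 276-fold lower, taking 3 counts as the group's floor. C1qc had 2 against 713 counts, a ratio of 461 in favour of naive cells (95% counting interval 127 to 3816), and Lbp 1 against 589 (762; 136 to 30152). Vcam1 (-8.19), the iron exporter gene Slc40a1 (-8.30) and the Fc receptor gene Fcgrt (-7.89), which tissue macrophages are known to express, fell too, and Hspa1l (-9.08) fell beside Hspa1a and Hspa1b. The transporter gene Slc16a5 (0.264, 0.352, 0.207 and 0.0498 CPM in the stimulated KO libraries, against 60.2, 58.2 and 65.9 CPM in the naive KO libraries; log2 fold change -8.10, SE 0.399, adjusted p = 1.12e-23) and Lrrc75b, with 1 against 686 counts, are on none of the marker lists.

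Markers of other lymphocytes fell in most cases, 14 of 15 for B cells, 6 of 7 for CD8 T cells and 12 of 13 for NK cells. Cd79a, part of the B cell receptor, had 1.53, 4.27, 3.37 and 4.83 CPM in the stimulated KO libraries, against 35.5, 56.4 and 70.9 CPM in the naive KO libraries and Klrb1c, the NK receptor NK1.1, had 0.899, 0.804, 0.259 and 0.299 CPM in the stimulated KO libraries, against 12.9, 10.6 and 14.8 CPM in the naive KO libraries. The exception among NK genes was Gzmb, the protease granzyme B that activated T cells also make (45.9, 59.0, 22.4 and 27.6 CPM in the stimulated KO libraries, against 3.99, 3.40 and 4.16 CPM in the naive KO libraries; log2 fold change 3.33, SE 0.733, adjusted p = 6.89e-05), with stimulated replicates 1 and 2 above replicates 3 and 4.

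Among genes of helper cell fates, of 13 Th1 genes 3 rose and 8 fell, of 12 Th2 genes 2 and 5, of 10 Th17 genes 1 and 2, of 14 T follicular helper genes 3 and 9, and of 14 regulatory T cell genes 5 and 6, where all genes had 36.2% higher and 40.3% lower. Tbx21, which encodes the Th1 factor T-bet, had 45.2, 47.8, 7.68 and 21.5 CPM in the stimulated KO libraries, against 4.15, 4.26 and 4.27 CPM in the naive KO libraries (log2 fold change 2.85, SE 0.473, adjusted p = 5.23e-07), and stimulated replicates 1 and 2 were again above 3 and 4. Gata3, the Th2 factor, fell (8.99, 11.8, 15.2 and 13.4 CPM in the stimulated KO libraries, against 87.4, 78.3 and 60.4 CPM in the naive KO libraries; log2 fold change -2.61, SE 0.265, adjusted p = 1.94e-12). The interleukin-18 receptor gene Il18r1 (-5.04) and Il6ra (-2.53) fell. Within the BCL2 family, 9 of 18 rose and 5 fell (50% and 27.8%). Bcl2l1, the survival protein BCL-xL, had 227, 248, 182 and 168 CPM in the stimulated KO libraries, against 25.2, 22.0 and 19.96 CPM in the naive KO libraries (log2 fold change 3.20, SE 0.265, adjusted p = 2.49e-15), whereas Bcl2 (42.1, 53.2, 64.9 and 78.9 CPM in the stimulated KO libraries, against 219.8, 304 and 273 CPM in the naive KO libraries; log2 fold change -2.15, SE 0.222, adjusted p = 3.26e-12) and Mcl1 (-0.96) fell. The near-identical Bcl2a1b and Bcl2a1d rose by 2.86 and 3.15.

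Published targets of miR-17∼92 did not move one way in cells that lack it. Of 30 tested, 9 rose and 15 fell, where 36.2% of all genes rose and 40.3% fell. Their median was -0.53, against -0.09 for all genes. With DESeq2 or with size factors in place of TMM, 17 fell. E2f3 (3.31), E2f1 and Phlpp2 (46.3, 34.1, 33.0 and 39.1 CPM in the stimulated KO libraries, against 8.81, 12.7 and 9.13 CPM in the naive KO libraries) rose, and Tgfbr2, Smad4 and Ezh1 fell. Of 15 genes of microRNA processing and Argonaute, 4 rose and 7 fell (26.7% and 46.7%, near the shares of all genes). Drosha (1.44) and Xpo5 (1.54), which make and export precursors, rose, and Tnrc6b (-1.98) and Tnrc6c (-2.13), the effectors of silencing, fell.

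Intronic reads, which come largely from unspliced RNA, gave a second view of the same libraries. Of 12366 genes with enough intronic counts, 7491 were called (60.6%), 3802 higher (30.7%) and 3689 lower (29.8%) in stimulated KO cells. Which direction led depended on the setting, with 3478 higher and 4054 lower under size factors and 3531 and 4080 with DESeq2. The change in exonic minus the change in intronic counts, taken within each library and tested with limma-trend, passed in 5535 of 11350 genes (48.8%), 2646 positive (23.3%) and 2889 negative (25.5%). Its median over all genes was -0.04. With a mean intronic count of at least 20 required, 2650 were positive and 2411 negative, and the median was 0.02. A difference is a measurement of 2 read classes, and neither RNA stability nor transcription was measured.

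Lists of chaperone, respiratory chain, proteasome, sterol and tRNA synthetase genes had mostly positive differences. Among 40 TCA cycle and respiratory chain genes, 31 had a positive and 1 a negative difference, with median log2 changes of 0.86 in exons and -0.04 in introns. The counts were 20 and 1 of 23 for chaperones (median difference 1.41), 25 and 2 of 34 for the proteasome (0.69), 18 and 1 of 24 for sterol synthesis (0.93) and 13 and 1 of 20 for tRNA synthetases (0.75). Fatty acid genes had 3 positive and 5 negative of 13 for synthesis (0.14) and 4 and 0 of 20 for oxidation (0.20). Hspd1 had intronic levels of 96.0 ± 26.5 CPM after stimulation and 86.5 ± 33.5 CPM in naive KO cells (SD, n = 4 and n = 3), an intronic change of 0.15 (edgeR, adjusted p = 0.634) beside an exonic change of 3.15, and the difference was 3.00 (SE 0.206, limma adjusted p = 3.08e-17). Tfrc, whose mRNA is known to be stabilised when iron is scarce, had an intronic change of 1.31 and a difference of 2.81 (SE 0.146, limma adjusted p = 8.58e-22). Cell cycle genes had 17 positive and 3 negative differences of 40 for replication (median 0.39) and 15 and 2 of 26 for mitosis (0.71). The prior count of 2 used for this difference shrinks changes from low intronic levels, such as that of Top2a, at 223 ± 25.7 CPM after stimulation and 3.92 ± 0.726 CPM in naive KO cells.

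Ribosomal protein and interferon genes lay on the other side. Of 77 ribosomal protein genes, 62 had a negative and 1 a positive difference (median -1.20), with median changes of -0.31 in exons and 1.0 in introns. Eef1a1, the elongation factor gene named above, changed by -0.83 in exons and 1.21 in introns. Introns of such genes can hold other transcripts, small nucleolar RNAs included. Interferon response genes had 23 negative and 0 positive differences of 26 (median -2.01). Myeloid and NK markers shared this pattern, with 7 negative and 0 positive of 8 myeloid (-2.25) and 8 and 1 of 12 NK genes (-1.99). B cell markers did so less, with 4 negative and 0 positive of 15 (-0.74). CD8 T cell markers had 1 and 0 of 5 (-0.35), where 25.5% of all genes were negative. The part of these cells was not tested. The naive state list was mixed, 5 positive and 10 negative of 25, and Btg1 fell more in introns (-4.68) than in exons (-2.55), as did Ccnd3 (-3.22).

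The largest single differences need the annotation beside them. Ak4 (difference 5.28, SE 0.354, limma adjusted p = 1.39e-17) and the sulfotransferase gene Chst2 (4.06) overlap no other annotated gene in GENCODE. Among 12 genes named by this measure, 10 overlap at least 1 other annotated gene. Cnga1 (difference -8.42) and Fcrla (-7.21) overlap pseudogenes on their own strand, Ssh2 (-4.14) a pseudogene and a small nucleolar RNA gene, and Afmid (-4.10) the replication gene Tk1. Since the strand setting of the counting is not given in the sources used here, the reads of such pairs cannot be told apart.

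**Figure D3:**
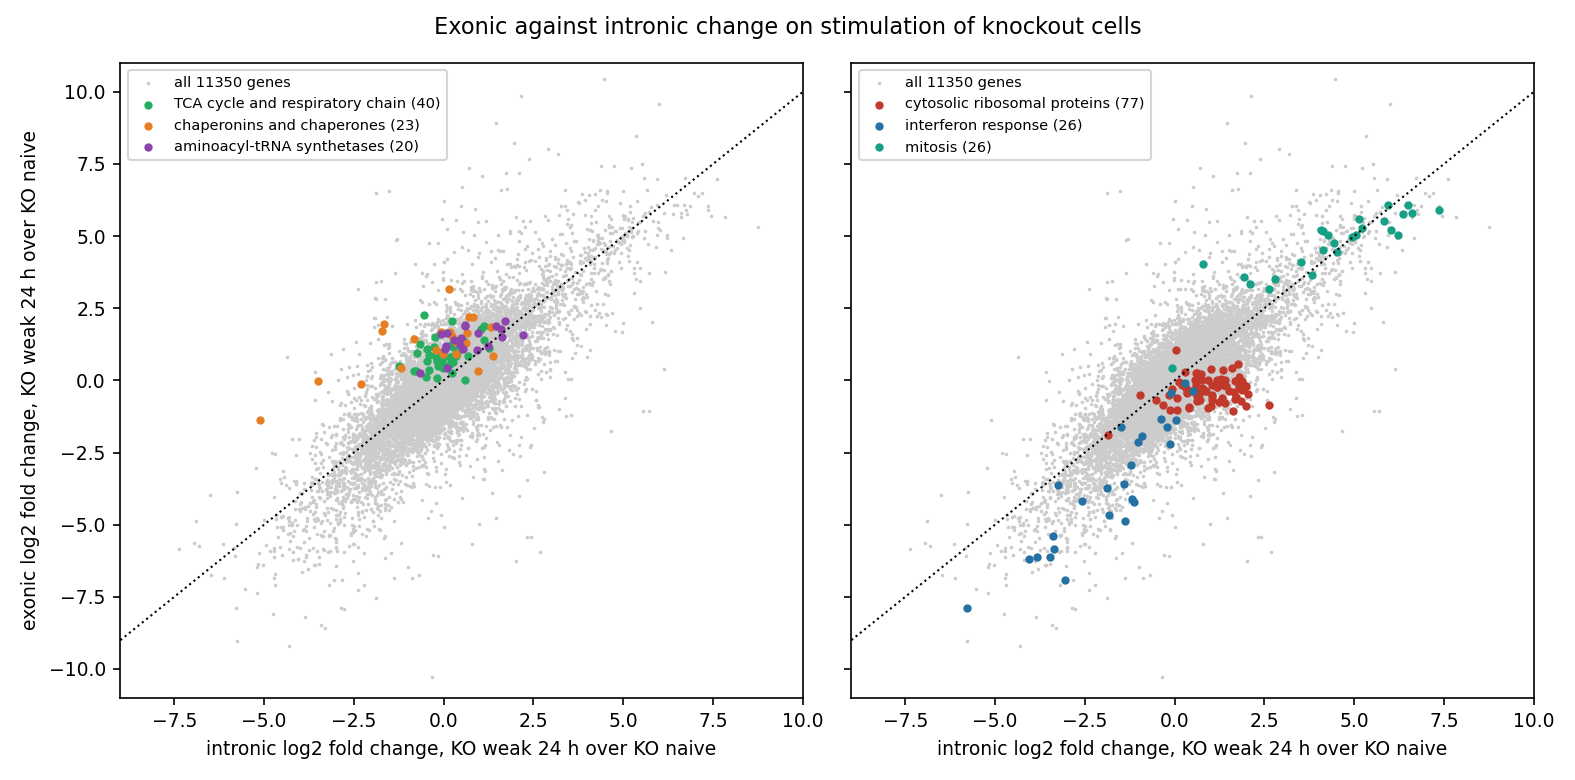
Exonic (y axis) against intronic (x axis) log2 fold change, KO weak 24 h over KO naive, for 11350 genes (grey), with 3 gene lists coloured in each panel and equality dotted. Most respiratory chain, chaperone and tRNA synthetase genes sit above the line, and most ribosomal protein and interferon genes below it.

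The response of KO cells was close to that of WT cells under the same stimulus. WT cells had 10615 called genes (77.4%), and 9804 genes were called in both genotypes, 93.6% of the KO and 92.4% of the WT calls, each of them in the same direction. Across the 13709 genes, which are not independent replicates, the changes had a Pearson r of 0.953, given as a description. The KO change minus the WT change, tested as an interaction, passed in 1 gene (0.00729%), and 708 genes had an unadjusted p under 0.05 (5.16%). DESeq2 called 10, and without KO naive replicate 2 the edgeR count was 12, all positive. Those 12 included Chek2, E2f2, Fanci, Kif20a, Kif22, Mcm10, Spag5 and Tk1, genes of replication, repair and mitosis that were named after the calls were seen. The median SE of this difference was 0.238 on the log2 scale, so small differences in single genes were not detectable.

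The 1 gene was Pmel, which encodes a pigment cell protein. It had 1.22, 1.96, 1.45 and 1.89 CPM in stimulated and 0.155, 0.0958 and 0 CPM in naive KO libraries, so all 4 stimulated libraries were higher. In WT cells it stood at 0.936 ± 0.191 CPM after stimulation and 0.555 ± 0.469 CPM before (SD, n = 4 and n = 3). The log2 changes were 4.17 in KO and 0.75 in WT cells, a difference of 3.42 (SE 0.630, adjusted p = 0.0248), at 128 counts in all in stimulated and 5 in naive KO libraries. The call was lost with only the 14 libraries of this comparison in the fit (adjusted p = 0.500), without KO naive replicate 4 (0.239), without WT naive replicate 2 (0.436), without KO weak replicate 2 (0.0702) or 4 (0.0654), and without WT weak replicate 2 (0.0509) or 3 (0.0575). Over these and the other alternatives run, the difference ranged from 2.54 to 4.11, with adjusted p values from 3.33e-04 to 0.500.

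Several genes followed above the threshold, and some passed under alternatives. Over 20 settings, the reported one included, Myo1c was called in 4, with 0.00286 as its lowest adjusted p. Chek2 and E2f2 were called in 3 each, with DESeq2, with a replicate block and without KO naive replicate 2, and Wars in 1, with DESeq2 (adjusted p = 0.0499). The motor protein gene Myo1c had 99.7 ± 5.89 and 26.3 ± 5.51 CPM in stimulated and naive KO cells, and 71.5 ± 3.503 and 33.3 ± 9.01 CPM in WT cells (difference of changes 0.82, adjusted p = 0.0532). The checkpoint kinase gene Chek2 rose by 2.63 in KO cells, with a difference of 1.12 (adjusted p = 0.1), and E2f2, a cell cycle factor and published target, by 1.17, with a difference of 0.70 (adjusted p = 0.1). On the other side, Wars, the tryptophanyl-tRNA synthetase, rose by 1.19 in KO cells with a difference of -0.49 (adjusted p = 0.122), and the chromatin protein gene Hmga1 by 1.55 with a difference of -0.60 (adjusted p = 0.247).

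Lists differed in the sign of these uncalled differences. Over all genes tested 6757 of 13709 were positive (49.3%), with a median of 0.00. Of the 26 mitosis genes, 25 were positive (median 0.45), and 11 had an unadjusted p under 0.05, against 5.16% of all genes, while 0 were called after adjustment over all genes. The summed level of this list was 4790 ± 376 and 179 ± 17.1 CPM in stimulated and naive KO cells, and 4236 ± 631 and 219.5 ± 41.5 CPM in WT cells (SD), so KO means were higher after stimulation and lower before it, by less than 1 SD of the WT libraries each. DNA replication genes were positive in 36 of 40 (median 0.15), and 8 had an unadjusted p under 0.05 in either direction. Published targets were positive in 22 of 30 (median 0.14), and 6 had an unadjusted p under 0.05 in either direction. Ribosome biogenesis genes were positive in 0 of 29 (median -0.24, 4 with an unadjusted p under 0.05), tRNA synthetases in 2 of 20 and proteasome genes in 2 of 34. Interferon response genes were positive in 5 of 26 (median -0.52), with 0 at an unadjusted p under 0.05. Genes of a list share libraries and regulation, so these counts are descriptions.

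**Figure D4:**
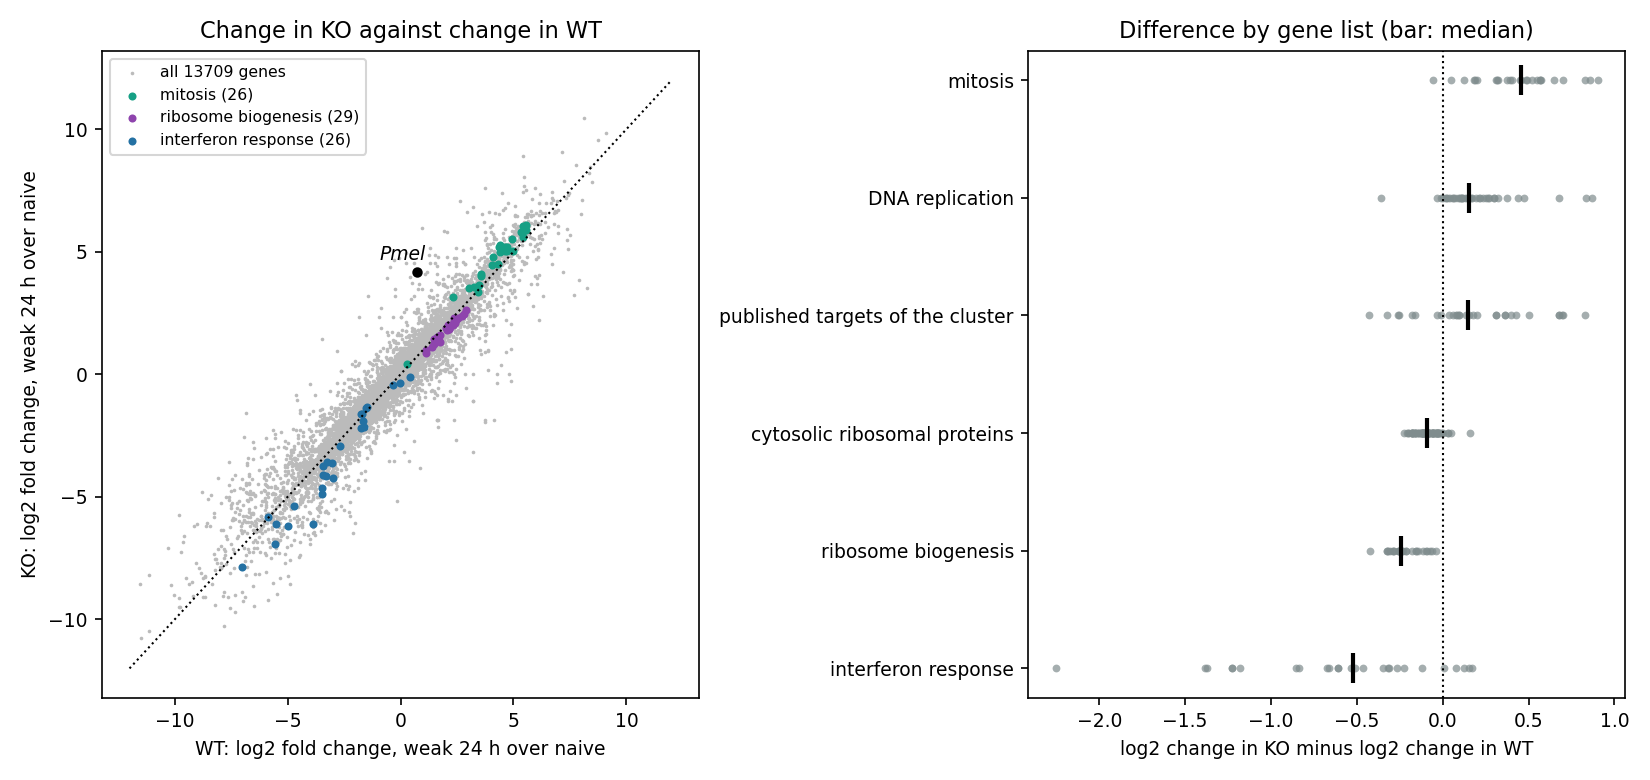
Left, log2 fold change on stimulation in KO (y axis) against WT cells (x axis) for 13709 genes, with 3 gene lists and Pmel marked and equality dotted. Right, the KO change minus the WT change (x axis, log2) for each tested member of 6 lists, with medians as bars: mitosis genes lie mostly right of 0 (median 0.45) and ribosome biogenesis genes left of it (-0.24).

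Levels were also available for KO cells under the very weak stimulus and at 48 h. Their changes share the naive KO libraries, so the values are set side by side without a test. Il2 stood at 0.205 ± 0.0922 CPM in naive cells, 10.6 ± 3.45 and 26.8 ± 10.8 CPM after 24 h of the very weak (anti-CD3 at 0.25 µg/ml) and the weak stimulus, and 52.6 ± 49.0 and 159 ± 154 CPM after 48 h of each (SD, n = 4, or 3 for naive cells). Its spread at 48 h was about as large as its mean. Il2ra had means of 403 and 379.5 CPM at 24 h and 726 and 760.2 CPM at 48 h, and Tpi1 of 902 and 1054, then 1975 and 1874 CPM. Both were higher at 48 h than at 24 h under either stimulus. Mcm7 went the other way, with 679 ± 70.1 and 683 ± 26.3 CPM at 24 h and 444 ± 45.4 and 399 ± 35.5 CPM at 48 h, as did Uhrf1 and Nop2. Top2a had 1093 ± 109 CPM at 24 h and 1095 ± 95.0 CPM at 48 h of the weak stimulus, a difference within its SD. Among falling genes, Tcf7 had 338 ± 124 and 252 ± 37.4 CPM at 24 h and 179.9 ± 32.6 and 159 ± 20.8 CPM at 48 h. Bcl2 stood at 266 ± 42.5 CPM in naive cells, 59.8 ± 15.8 CPM at 24 h and 114 ± 24.2 CPM at 48 h of the weak stimulus.

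**Figure D5:**
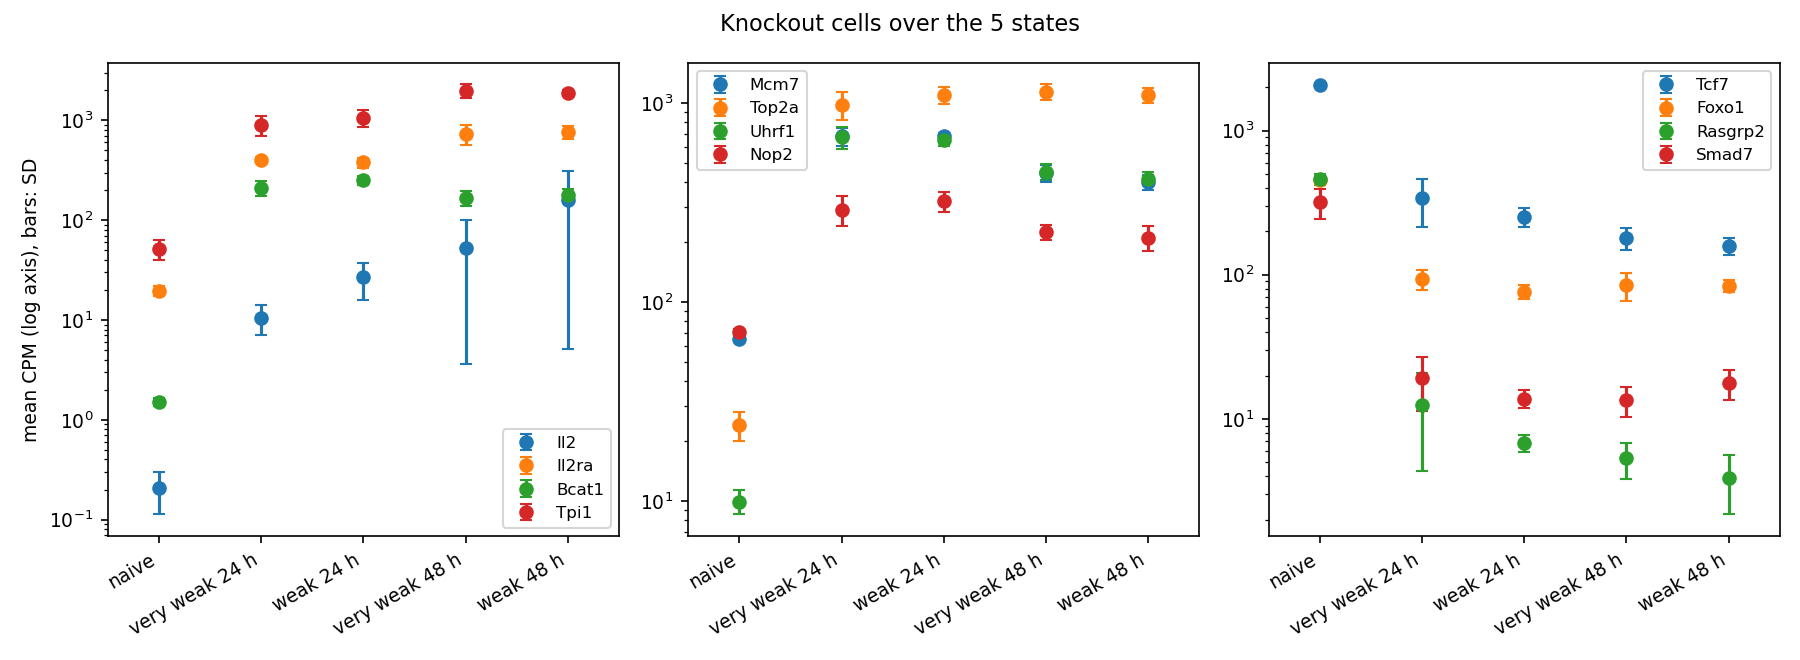
Mean CPM (log y axis) with SD bars of 12 genes in KO cells, naive and after 24 h and 48 h of the very weak and the weak stimulus (x axis; 4 libraries a state, 3 for naive). Rising genes are in the left and middle panels and falling genes in the right one, and Mcm7 is lower at 48 h (399 CPM, weak) than at 24 h (683 CPM).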

How the data were processed

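Poly(A) RNA of 58 libraries was sequenced single-end from strand-marking libraries, per the labels' protocols. The deposited tables hold whole-number counts per gene, 1 for the full gene and 1 for introns. FastQC 0.11.5, STAR 2.5.2a, the mm10 build, R 3.5 and edgeR 3.24.3 are named in the submitters' processing notes; which program counted the reads, on which gene models and with which strand option, is not given in the sources used here. The full-gene values are called exonic, because in 14.1% of values the intron count exceeds the full-gene count, so introns are not contained in it. Reads carry no molecular identifiers, and intervals and floors (3 counts over a group, 95% exact intervals) cover counting error only.

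Of 24028 gene IDs, 23968 matched RefSeq and 7 GENCODE by ID, and 53 stayed unnamed. Counts were fitted in R 4.3.3 with edgeR 4.0.16 (TMM, filterByExpr, glmQLFit, glmQLFTest) over all 58 libraries in 15 groups, which share 1 estimate of spread, with Benjamini-Hochberg adjustment over all genes tested and a threshold of 0.05. The exonic minus intronic difference used log2 CPM with a prior count of 2 in limma 3.58.1. Levels are CPM scaled by TMM. Each SE beside an edgeR change is the absolute log2 change over the square root of its F statistic. It is approximate, most of all where a state has counts near 0. No 2 KO libraries of a state agreed within sampling noise. Fits were tested on simulated data. Alternatives were DESeq2 1.42.0, its size factors, no filter on low counts, only the libraries compared, a replicate block and leaving out each library; for the exonic minus intronic difference also a prior count of 0.5 and a mean intronic count of at least 20. Depth, 19.3 to 20.6 M counts in the 7 KO libraries compared, lets genes of a few CPM be measured.

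The members of the comparison, the gene lists and the motifs were chosen with earlier results of these data known. Genes were named by a rule: the cluster; the 12 largest called rises and falls at 10 CPM or more; up to 4 called members of each of 51 lists by smallest adjusted p and up to 2 against its majority; markers of other cells; the 6 most abundant genes of each state; up to 8 genes each way by the interaction and up to 6 by the exonic minus intronic difference. Promoter and microRNA sequences are from RefSeq, GRCm38.p6. Some genes that the rule names are not reported here.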

Additional observations from a re-analysis of the deposited data

Results flagged for a closer look

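Among 257 named genes, a library was checked for standing apart from the other 3 in stimulated KO cells by its gap to the nearest library over the whole range (Dixon's 95% rule), a test that chance meets in about 1 in 20 groups. It was met in 10 genes. Replicate 4 was apart in 4 of them. It had 745.6 CPM of Nfkb1 against 842.7 to 860.6 CPM in the other 3, 23.2 CPM of Tnfrsf14 against 14.32 to 15.49, 111.7 CPM of Cdkn1a against 66.45 to 71.11 and 174.8 CPM of Bub1b against 155.8 to 158.3. Replicate 1 had 11 CPM of Fnip2 against 7.768 to 7.936, 202.2 CPM of Slc38a2 against 136.5 to 145.1 and 164.1 CPM of Acaca against 125.8 to 130.1. Replicate 2 had 194.1 CPM of Junb against 79.35 to 97.67 and 1354 CPM of Tpi1 against 930.1 to 994.5. Replicate 3 had 23.65 CPM of Dusp1 against 33.85 to 34.84. In each of the 10 genes the call between stimulated and naive KO cells was kept when that replicate was left out.

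Pmel was the 1 gene whose change on stimulation differed between KO and WT cells by the test of the difference, with an interaction of 3.421 on the log2 scale. Its calls under the alternatives are given with that result.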

How the results depend on the processing

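The counts of genes called in KO cells stayed within 1.5 times of the reported ones under every alternative run. For exonic calls they were 9478 with the 7 libraries alone, 10440 with DESeq2, 10501 with size factors, 10880 without a filter and 10076 to 10354 with 1 library left out. Calls of at least 2-fold numbered 6029 to 7261, intronic calls 6863 to 7850, and exonic minus intronic calls 4643 to 5801. The median log2 change over all genes was -0.09, and -0.12 with size factors.

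The count of genes whose change differed between KO and WT cells was 1, and it was 10 with DESeq2 (8 higher, 2 lower), 0 with only the 14 libraries compared (746 at an unadjusted p under 0.05 in edgeR), and between 0 and 12 with 1 library left out. It was 12 without KO naive replicate 2, 4 without KO naive replicate 1, 3 without WT naive replicate 1, 2 without WT weak replicate 1, and 0 without KO naive replicate 4, KO weak replicate 2 or 4, WT naive replicate 2 or WT weak replicate 2 or 3. The cause was not tested.

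With 3 numbers shared by the KO states, whether equal replicate numbers pair the libraries could not be settled. Deviations from the state mean correlated at 0.07, -0.14 and -0.15 for equal numbers 1, 2 and 4. Unequal numbers gave -0.08 to 0.21. A fit with a replicate block called 10681 exonic changes and 10 differences between genotypes (7 higher, 3 lower).

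Over 277 named genes, 3283 of 3318 results under alternatives kept direction and call, 26 lost the call (Ccnd3, Psmb8, Socs6, Fbxo25, Taldo1, Rps12 and Slfn2), 9 gained it and 0 reversed. Counts within lists, recomputed after seeing the data with each library left out, kept within 1.5 times in 700 of 714 cases, and the others were in SOCS, G1 cyclin, ribosomal protein, glycolysis and proteasome genes. Some list counts also moved with the method. With DESeq2 the ATF4 list had 2 members lower, against 1 as reported. Under DESeq2 and under size factors alike, published targets had 17 lower against 15, SOCS genes 4 against 3 and the BCL2 family 6 against 5.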
